A study of Mus musculus with 6 samples.

Results

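The microRNA loci with signal are the rows of the deposited expression table that carry a microRNA gene symbol and reach at least 1 FPKM (a level of RNA scaled to transcript length and library size) in at least 1 of 6 libraries. The members were thus chosen by these FPKM values, and 133 of 648 microRNA rows (20.5%) qualify, out of 23284 rows in all. Another 513 microRNA rows are listed at 0 in every library, and 2 rows lie above 0 without reaching 1 FPKM. The libraries come from parietal cells of the mouse stomach, which secrete gastric acid, sorted for the red fluorescent protein tdTomato. The 3 noggin libraries have the genotype label Transgenic-Tom-nog and carry, by the series' account, a Cre recombinase transgene and a noggin transgene, each under the promoter of the parietal cell proton pump, together with the Rosa26 tdTomato reporter. The 3 control libraries have the genotype label Transgenic-Tom. The tdTomato label is common to both groups, each library is labelled as a biological replicate, and no source used here says whether it holds 1 animal or several or gives an age. Noggin is a secreted protein that binds bone morphogenetic proteins and keeps them from their receptors, and the series asks how this signalling regulates parietal cells.

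A microRNA gene is first transcribed as a long primary transcript, or lies inside an intron or exon of another gene, its host. The nuclease Drosha with its partner Dgcr8 cuts out a hairpin, exportin 5 with Ran carries it to the cytoplasm, and Dicer1 trims it to the mature microRNA, which an Argonaute protein holds against messenger RNAs that match its seed, bases 2 to 8. The RNA libraries here were made with a kit that primes on poly(A) tails and were read as 50-base single reads. Mature microRNAs of the members are 16 to 26 bases long and carry no such tail, so a value at one of these loci is a level of reads placed on the hairpin's stretch of a longer RNA, not of the mature microRNA.

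The mature sequences of the loci that the results turn on come from RefSeq (GRCm38.p6). They are written 5′ to 3′ with the seed in capitals. The first set holds 7 of the 11 loci that reached 1 FPKM in every library.
mmu-miR-3064-5p: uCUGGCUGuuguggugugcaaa
mmu-miR-686: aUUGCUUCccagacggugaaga
mmu-miR-1954: aCUGCAGAgugagacccuguu
mmu-miR-1938: cGGUGGGAcuuguaguucgguc
mmu-miR-703: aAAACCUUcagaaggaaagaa
mmu-miR-762: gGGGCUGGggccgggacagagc
mmu-miR-1982-3p: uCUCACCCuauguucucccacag
The second set holds the 4 loci called different between noggin and control libraries (Mir680-2, Mir3112, Mir324 and Mir546).
mmu-miR-680: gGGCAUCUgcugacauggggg
mmu-miR-3112-3p: cAGUUUGUcucuucuuugucu
mmu-miR-324-5p: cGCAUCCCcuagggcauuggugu
mmu-miR-546: aUGGUGGCacggaguc
The third set shows members that share a seed or overlap on opposite strands: 4 let-7 loci, 2 pairs of loci with the seeds of miR-27 and miR-29, and miR-24 with miR-3074, which are read from opposite strands of the same hairpin DNA.
mmu-let-7b-5p: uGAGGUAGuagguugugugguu
mmu-let-7d-5p: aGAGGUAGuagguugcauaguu
mmu-let-7g-5p: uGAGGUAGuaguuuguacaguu
mmu-let-7i-5p: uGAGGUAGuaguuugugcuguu
mmu-miR-27a-3p: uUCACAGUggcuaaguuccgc
mmu-miR-27b-3p: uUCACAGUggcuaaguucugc
mmu-miR-29b-3p: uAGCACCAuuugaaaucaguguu
mmu-miR-29c-3p: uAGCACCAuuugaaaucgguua
mmu-miR-24-3p: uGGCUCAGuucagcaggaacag
mmu-miR-3074-5p: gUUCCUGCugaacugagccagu
RefSeq gave 194 mature sequences for 125 members, and 9 seeds were shared by 2 or more members.

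All 12 parietal markers were present in every library. Every noggin library lay above every control library for Atp4b (21468 to 25184 against 16877 to 21417 FPKM) and below it for 8 markers, among them Atp4a (5433 to 7619 against 13385 to 16218 FPKM). Summed, the list came to 28784 to 32068 FPKM in noggin and 32969 to 40237 FPKM in control libraries. Markers of other cells also differed. Every noggin library lay above every control library for all 5 neck cell markers, 6 of 13 leukocyte markers, 4 of 6 mast cell markers, 3 of 10 enteroendocrine markers (Chga, Ghrl and Hdc) and 2 of 6 chief cell markers (Clps and Pnliprp2). Every noggin library lay below every control library for Kit of the mast cell list and Muc5ac of the pit cell list. The sums were 10765 to 25864 against 2456 to 3362 FPKM for neck cells, 34.3 to 284 against 8.41 to 10.2 FPKM for leukocytes and 171 to 261 against 37.2 to 60.8 FPKM for mast cells, in noggin against control libraries. They were 131323 to 357848 against 60942 to 112019 FPKM for chief cells, 1905 to 28675 against 450.2 to 2692 FPKM for enteroendocrine cells and 9098 to 23640 against 9170 to 13966 FPKM for pit cells. Endothelial markers summed to at most 11.5 FPKM and stromal markers to at most 1.83 FPKM in any library. The 6 leukocyte markers were Ptprc, Cd74, Lyz2, Fcer1g, Tyrobp and Laptm5, and 0 of the 13 lay below in every noggin library. Cd74 had 8.78, 36.8 and 182 FPKM in noggin replicates 1 to 3, against 4.14 to 6.64 FPKM in control libraries. Lyz2 had 0.941, 5.77 and 52.6 FPKM, against 0.187 to 0.720 FPKM. Fcer1g was highest in noggin replicate 1, at 10.8 FPKM. Of the same list the T cell genes Cd3g and Cd3e were listed at 0 in 5 and 3 libraries. The B cell genes Cd79b and Cd79a were at 0 in 5 and 2. Cd3e reached at most 0.336 FPKM and Cd79a at most 0.128 FPKM. Of the endothelial list 1 marker was at 0 in all 6 libraries. Pecam1 of that list had 5.70 FPKM in noggin replicate 3, against 0.175 to 0.383 FPKM in the other libraries. The part of these cells in the values at microRNA loci was not tested. In bulk libraries, fewer cells of a type and less RNA per cell cannot be told apart. Noggin replicate 3 stood apart, with 542 of the 10644 tested genes listed at 0, against 19 to 34 in the other 5 libraries.

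Most of the loci were seen in few libraries. Of the 133 members, 70 reached 1 FPKM in 1 library, 22 in 2, 12 in 3, 9 in 4, 9 in 5 and 11 in all 6. The value of the 70 single-library loci had a median of 38.8 FPKM and ran from 7.02 to 3171 FPKM. Some of these values were the smallest that the library held at that locus length. Mir1981, at 28.2 FPKM and 82 bases in control replicate 2, is an example. By group, 36 loci reached 1 FPKM only in noggin libraries, 48 only in control libraries and 49 in both. Noggin replicates 1 to 3 had 52, 47 and 30 loci at 1 FPKM or more, against 53, 54 and 61 in control replicates 1 to 3. The loci seen in noggin replicate 3 were fewer and higher. Their median there was 205 FPKM, beside 94.6 and 66.9 FPKM in noggin replicates 1 and 2 and 41.9 to 44.9 FPKM in the control libraries. Leaving out noggin replicate 3 would leave 125 members, since 8 loci were seen only there. Summed over the members, 1.17% to 1.57% of all FPKM in noggin libraries and 1.32% to 1.59% in control libraries fell on these loci. Small nucleolar RNA rows, another class of short non-coding loci, reached 1 FPKM in 66 of 109 cases (60.6%), and so did 12524 of the 23284 rows of the table (53.8%).

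**Figure D1:**
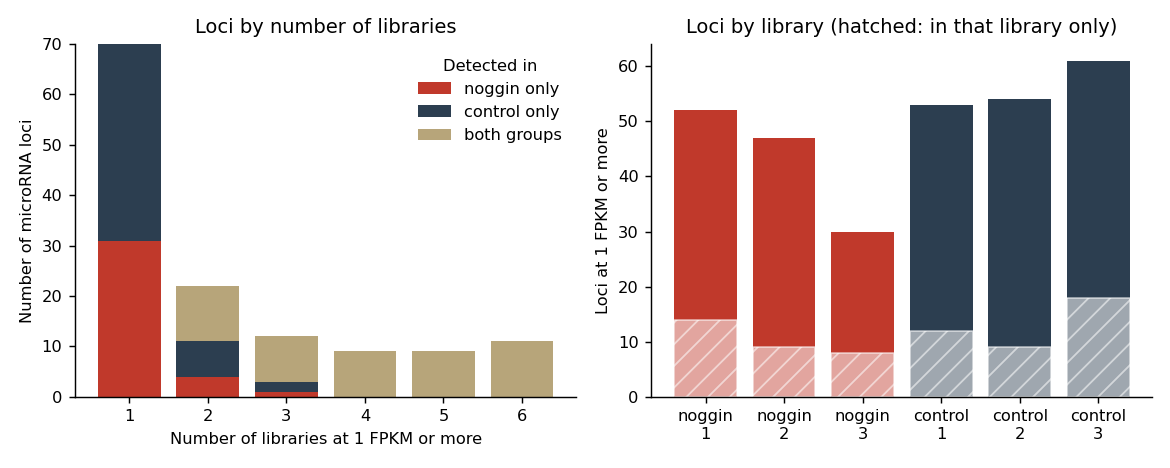
Left, number of microRNA loci by the number of libraries in which they reached 1 FPKM, split by group. Right, loci at 1 FPKM or more in each library, with those seen in that library alone hatched: noggin replicate 3 has 30, the others 47 to 61.

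In some libraries the values at many of these short loci came in steps, most clearly in control replicate 2. In control replicate 2 the loci Mir1905, Mir1981 and Mir19a, all 82 bases long, had the same value of 28.2 FPKM. Of the same length, Mir3112 had 56.4 FPKM and Mir2861 had 169 FPKM there, 2 and 6 times as much. At 109 bases Mir692-1 had 7.56 FPKM and Mir703 had 627 FPKM, which is 83 times as much, and at 100 bases Mir1938 was at 48 times the 22.0 FPKM of Mir3968. The smallest value in that library was 28.2 FPKM at 82 bases, 7.56 FPKM at 109 bases and 5.24 FPKM at 119 bases (Mir1931). Loci were set against the lowest of the same length, that one left out, and a locus equal to it counted as a whole multiple. Whole multiples, to within 0.01 of the lowest value, were 9 of 18 in noggin replicate 2 and 17 of 22 in control replicate 2. In control replicate 3 they were 13 of 28. The same held for 2 of 23 in noggin replicate 1, 3 of 6 in noggin replicate 3 and 2 of 21 in control replicate 1.

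A step was worth more in some libraries than in others. At 66, 74, 100 and 109 bases the smallest value in noggin replicate 3 was 2.154 times that in control replicate 2. At other lengths this ratio differed. Of 29 loci seen in noggin replicate 2 and in control replicate 2, 5 had, to 3 decimals, the same ratio of 1.34 of the first library to the second. Of 32 loci seen in control replicate 3 and in control replicate 2, 8 likewise had a ratio of 1.152. Mir1931 and Mir760, both 119 bases long, illustrate this: Mir760, 1 of the 3 members nearest above the threshold, had 7.02 FPKM in noggin replicate 2, and Mir1931 had 5.24 FPKM in control replicate 2. The other members nearest above it were Mir695 at 7.33 FPKM in control replicate 1 and Mir1966 at 7.86 FPKM in control replicate 2. The rows nearest below were Mir1306 at 0.974 FPKM in control replicate 3 and the host transcript Mir17hg at 0.819 FPKM in noggin replicate 1. No member peaked between 1 and 5 FPKM, so a threshold anywhere in that range would give the same members. Single values of members did lie lower. Mir22 had 1.53 FPKM in noggin replicate 3 and 0.235 FPKM in control replicate 1. Across 130 members the highest value of a locus and its length had a Spearman correlation of -0.47. These points share the length term of the unit, and the fragment counts behind them are not given here.

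**Figure D2:**
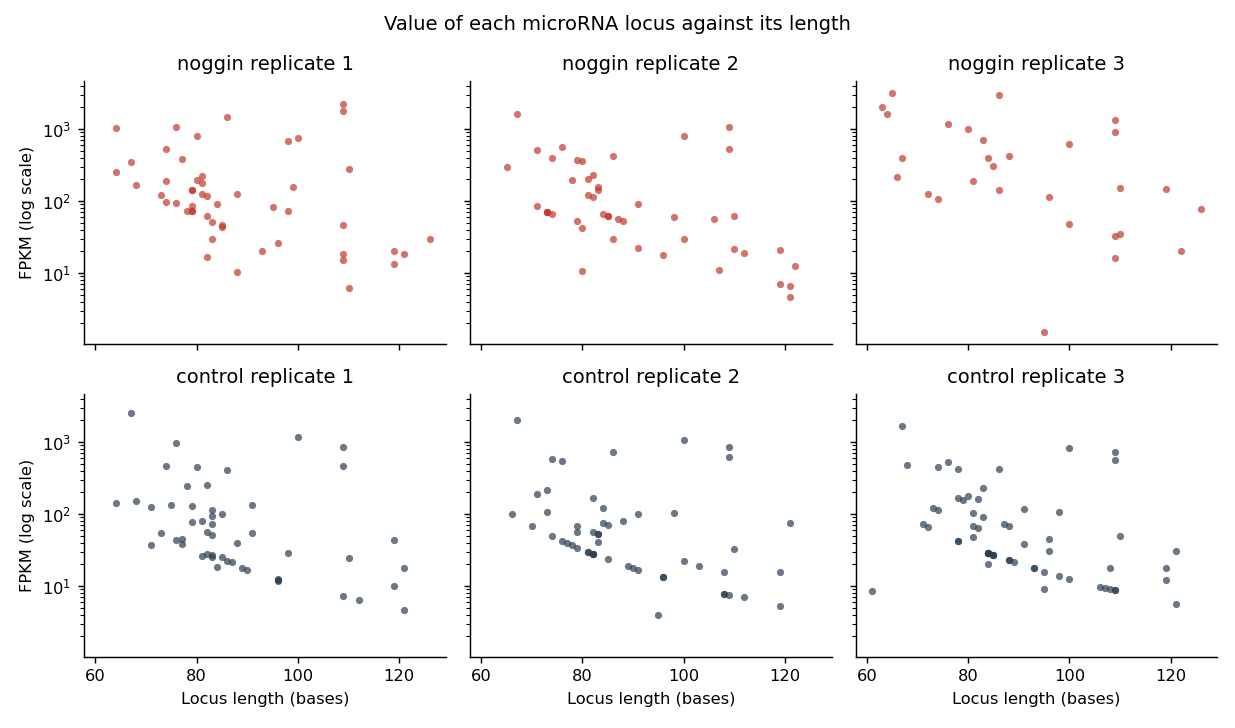
FPKM of each member at 1 FPKM or more in a library (log scale) against the length of the locus in bases, with noggin libraries above control libraries. In control replicate 2, 17 of 22 points set against the lowest of their length are whole multiples of it. Its lowest values run from 28.2 FPKM at 82 bases to 5.24 FPKM at 119 bases, with Mir22 lower, at 3.95 FPKM and 95 bases. Mir147, at 0.110 FPKM there, is not drawn.

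The loci with signal sat inside host genes, and inside their exons, more often than microRNA rows with none. In the GENCODE M21 annotation of GRCm38, the same assembly as mm10, 130 of the 133 members were found, with lengths of 61 to 126 bases and a median of 84, against a median of 83 for 503 other microRNA rows. A gene on the same strand held 103 of 130 members (79.2%) and 318 of 503 other rows (63.2%). An exon of that gene held 52 of 130 members (40.0%) and 59 of 503 other rows (11.7%). By position, 6 members lay in coding exons, 11 in 3′ UTRs, 2 in 5′ UTRs, 33 in exons of non-coding transcripts, 4 across an exon boundary and 47 in introns. A further 9 overlapped only a gene on the opposite strand, and 18 overlapped no gene. Host exons held 26 of the 41 loci seen in 3 or more libraries (63.4%) and 26 of the 89 matched loci seen in 1 or 2 (29.2%). Introns held 8 of those 41 (19.5%) and 39 of those 89 (43.8%). These shares were not tested. Hairpins of the members had a median of 52.9% G and C over 120 sequences, against 48.0% over 393 other rows.

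The hosts were also more often expressed. Of 83 members whose host is in the table, 67 hosts (80.7%) averaged 1 FPKM or more, against 111 of 282 hosts of other rows (39.4%). The host's mean had a median of 6.72 FPKM for the members and 0.325 FPKM for the other rows. The locus value was above its host's for 57 of 83 members. Over these 83 loci the mean of the locus and the mean of its host had a Spearman correlation of 0.30, and over the 29 among them that passed the filter of the test below it was 0.17. The points share libraries and the steps described above. The sources used here do not say whether strand was kept in counting, so reads of a locus, its host and a gene on the opposite strand cannot be told apart. Over any 50 bases, the length of a read, 64 of 130 members were identical to a transcript of another gene. For 7 of these it was a gene other than the host or the opposite-strand gene. Transcripts annotated as microRNAs were left out of this count, and the genome outside annotated transcripts was not searched.

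**Figure D3:**
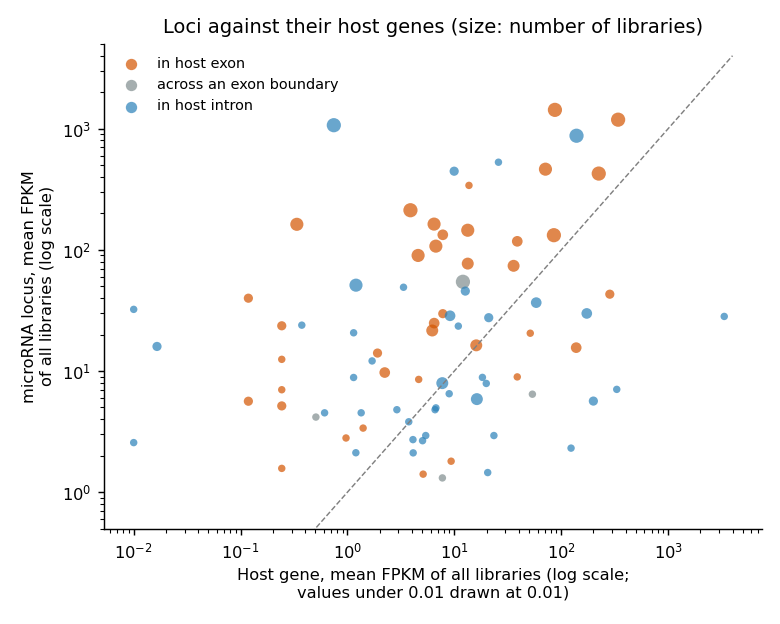
Mean FPKM of each of 83 microRNA loci over the 6 libraries against that of its host gene, both on log scales, coloured by position in the host, with larger points for loci seen in more libraries. The dashed line marks equal values; 57 of 83 loci lie above it.

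The 11 loci that reached 1 FPKM in every library were Mir3064, Mir686, Mir1954, Mir1938, Mir703, Mir762, Mir1982, Mir1893, Mir3101, Mir719 and Mir1199. For each, noggin and control libraries were compared with limma on log2(FPKM + 1) across the 10644 genes that reached 1 FPKM in at least 3 libraries. None of the 11 was called at a Benjamini-Hochberg adjusted p under 0.05. Under other settings limma called Mir3064 lower after rescaling to the same total (adjusted p = 0.0459), and Mir1938 lower after rescaling and after quantile normalization (0.0415 and 0.0377). Without noggin replicate 2 it called Mir3064 lower and Mir686 and Mir1954 higher (adjusted p of 0.0140, 0.0417 and 0.0270). Folds below are differences of mean log2(FPKM + 1), noggin minus control, and are given with their standard error (SE).

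Mir3064 (chr11:106782693-106782759, minus strand) had the highest mean FPKM of the members. It is a short locus of 67 bases, and FPKM does not rank loci of unlike length by number of steps. In control replicate 2 the smallest value was 102 FPKM at 66 bases (Mir144), against 7.56 FPKM at 109 bases. It lies in an exon of a non-coding transcript of Ddx5, an RNA helicase that is itself a partner of Drosha. The locus had 352, 1597 and 395 FPKM in noggin replicates 1 to 3, against 2527, 2017 and 1689 FPKM in control replicates 1 to 3. Every noggin library was below every control library, although noggin replicate 2 came close to control replicate 3. The log2 fold change was -1.76 (SE 0.56, limma adjusted p = 0.115). Ddx5 had 75.8, 72.5 and 112 FPKM in noggin libraries and 82.1, 94.3 and 86.9 FPKM in control libraries, which overlap, and its log2 fold change was -0.04 (SE 0.21, limma adjusted p = 0.910). Within libraries the log2 ratio of the locus to Ddx5 averaged 2.83 ± 1.42 in noggin and 4.55 ± 0.35 in control libraries (SD, n = 3 each, two-sided exact permutation p = 0.3). This is 1 of 9 such ratios compared. The smallest p that 3 libraries against 3 allow is 0.1, and the smallest value after adjustment over the 9 was 0.45.

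Mir686 (chr14:54616677-54616785, minus strand) moved with its host. It lies in a coding exon of Psmb5, a catalytic subunit of the proteasome. The locus had 2230, 1076 and 1358 FPKM in noggin libraries, against 859, 856 and 739 FPKM in control libraries. Psmb5 had 705, 308 and 339.8 FPKM in noggin libraries, against 222, 243 and 224 FPKM in control libraries. For both, all noggin libraries lay above all control libraries and noggin replicate 1 was the highest. The log2 fold change was 0.86 for Mir686 (SE 0.30, limma adjusted p = 0.134) and 0.87 for Psmb5 (SE 0.32, limma adjusted p = 0.141). These folds are without rescaling. FPKM over all genes summed to 797168 to 1188186 in noggin and 595736 to 669124 in control libraries. Rescaling to the same total moved the median of all tested genes from -0.03 to -0.63. The log2 ratio of locus to host was 1.82 ± 0.17 in noggin and 1.83 ± 0.12 in control libraries (SD, n = 3 each), a difference of -0.007 (exact permutation p = 0.9).

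Mir1938 and Mir1982 lay the other way from their hosts, although both loci turned positive, at 0.22 and 0.13, once the trend with length was removed. Mir1938 (chr12:40222712-40222811, minus strand) is in an intron of Ifrd1, a transcriptional co-regulator, and had 761, 795 and 615 FPKM in noggin libraries, against 1184, 1055 and 835 FPKM in control libraries. Its host Ifrd1 had 136, 190.5 and 160.3 FPKM in noggin libraries, against 120.3, 115 and 111 FPKM in control libraries. The groups overlapped for neither. The log2 fold change was -0.49 for Mir1938 (SE 0.23, limma adjusted p = 0.215) and 0.48 for Ifrd1 (SE 0.18, limma adjusted p = 0.153). Their log2 ratio was 2.16 ± 0.28 in noggin and 3.14 ± 0.20 in control libraries (SD, n = 3 each, exact permutation p = 0.1). At least 50 bases of Mir1938 are also found in a transcript of Gm7008, on its opposite strand. With each library rescaled to the same total, Ifrd1 turned to -0.23.

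Mir1982 (chr10:80828797-80828870, plus strand) lies in an exon of a non-coding transcript of Oaz1, the antizyme that limits polyamine synthesis. It had 536, 397 and 106 FPKM in noggin libraries, against 471, 592 and 454 FPKM in control libraries. Oaz1 had 535, 206 and 200.3 FPKM in noggin libraries, against 149, 136 and 119.7 FPKM in control libraries. The locus overlapped between groups and the host did not. The log2 ratio of locus to host was 0.01 ± 0.93 in noggin and 1.90 ± 0.23 in control libraries (SD, n = 3 each, exact permutation p = 0.1). The log2 fold change was -0.83 for Mir1982 (SE 0.55, limma adjusted p = 0.355) and 1.06 for Oaz1 (SE 0.38, limma adjusted p = 0.134).

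At 3 more of the 11 loci the level was high in every library, with little or no signal in an overlapping gene on the same strand. Mir1954 (chr2:32652329-32652414, plus strand) lies in an intron of Eng, the endothelial co-receptor endoglin. The locus had 1465, 428 and 2950.2 FPKM in noggin libraries, against 414, 731 and 421 FPKM in control libraries, while Eng had 0.613 to 1.04 FPKM in noggin and 0.351 to 0.886 FPKM in control libraries. Noggin replicates 1 and 3 stood above the other 4 libraries, and the log2 fold change was 1.29 (SE 0.65, limma adjusted p = 0.239). Mir703 (chr5:98475556-98475664, minus strand) overlaps only a gene on the opposite strand, listed as 1700007G11Rik, which was at 0 in 5 libraries. Mir703 had 1802, 527 and 912 FPKM in noggin libraries, against 465, 627 and 566 FPKM in control libraries, which overlap. Its values in control replicates 2 and 3 and noggin replicate 3 were 83, 65 and 56 times the smallest value at 109 bases in the same library. In noggin replicate 1 and control replicate 1 they were 117.17 and 63.49 times it, which are not whole multiples. In noggin replicate 2 the value of Mir703 was itself the smallest. Mir762 (chr7:127708487-127708562, plus strand) lies opposite Bcl7c, a subunit of a chromatin remodelling complex. Mir762 had 1066, 568 and 1186 FPKM in noggin libraries, against 964, 551 and 537 FPKM in control libraries, while Bcl7c had 15.6 to 38.5 FPKM in noggin and 12.3 to 13.9 FPKM in control libraries. The log2 fold change of Mir703 was 0.80 (SE 0.42, limma adjusted p = 0.262) and that of Mir762 was 0.44 (SE 0.36, limma adjusted p = 0.450), the second turning to -0.27 after rescaling.

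The last 4 of the 11 varied most within the noggin group. Mir1893, in a coding exon of the chromatin regulator Epc1, had 29.6, 159 and 697 FPKM in noggin libraries, against 114, 41.5 and 232 FPKM in control libraries. Mir3101, in an exon of a non-coding transcript of the endosomal GTPase Rab4b, had 125, 53.2 and 427 FPKM in noggin libraries, against 39.4, 79.4 and 68.6 FPKM in control libraries. Mir719, across an exon boundary of the nucleoporin gene Nupl1, had 6.20, 61.8 and 153 FPKM in noggin libraries, against 24.3, 32.5 and 49.0 FPKM in control libraries. In each, noggin replicate 3 was the highest of the 6 libraries. The same was true of Mir1199, in a coding exon of a gene annotated as 2210011C24Rik, with 13.6, 21.1 and 147 FPKM in noggin libraries, against 43.9, 15.7 and 18.1 FPKM in control libraries. The log2 fold changes were 0.53 for Mir1893, 1.23 for Mir3101, 0.24 for Mir719 and 0.58 for Mir1199, with limma adjusted p of 0.778, 0.278, 0.893 and 0.679. Rab4b itself did not overlap, at 74.2 to 158 FPKM in noggin and 47.8 to 53.5 FPKM in control libraries (log2 fold change 1.17, SE 0.28, limma adjusted p = 0.0751).

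**Figure D4:**
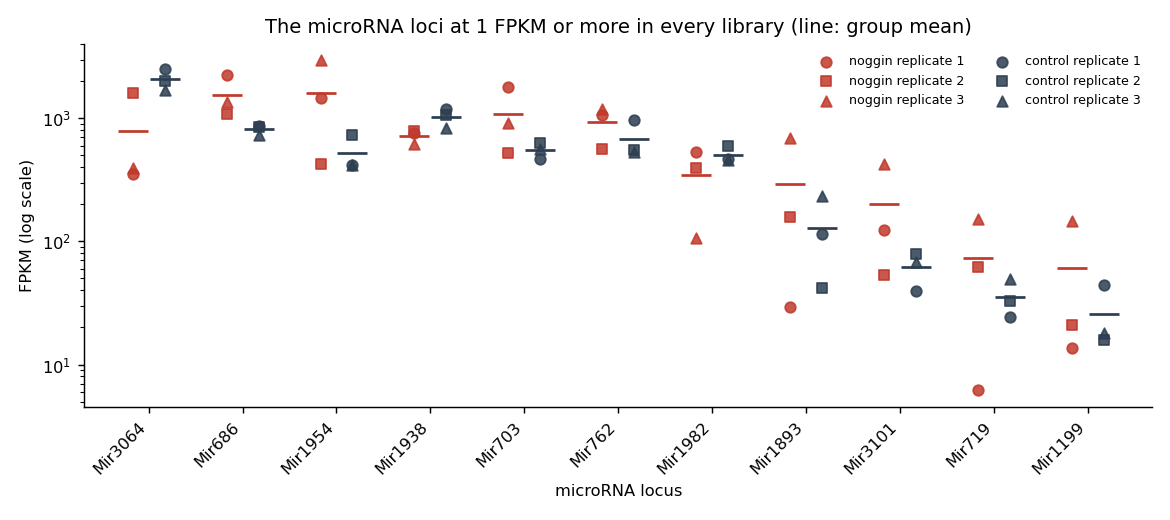
FPKM (log scale) of the 11 microRNA loci at 1 FPKM or more in every library, by library, noggin left and control right at each locus, with a line at the group mean. Mir3064, a short locus of 67 bases, is the highest in FPKM in all 3 control libraries, at 1689 to 2527 FPKM.

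Of the 133 loci, 41 passed the filter of the test and 92 did not. A locus high in 1 group alone can pass only through that group, so the count below is a description of those 41. limma called 4 of them at an adjusted p under 0.05, of 7 at an unadjusted p under 0.05, a level that 26.7% of all tested genes reached. Higher in noggin libraries was 1 locus, against 1.75% of all tested genes, and lower were 3 loci, against 0.695% of all tested genes; over both directions 2.44% of genes were called. Groups did not overlap for 8 of the 41 loci, against 38.3% of all tested genes. The median log2 fold change was -0.80 over the 41 loci, of which 15 were positive and 26 negative, and -0.03 over all tested genes. Of the 41, 30 were listed at 0 in at least 1 library, and 24 were at 0 in noggin replicate 3, against 9 and 11 in noggin replicates 1 and 2 and 4 to 7 in the control libraries. Without noggin replicate 3 the median over the 41 loci was -0.14. Rescaling each library to the same total moved the median of all tested genes to -0.63 and that of the 41 loci to -1.25.

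The 3 loci called lower, Mir324, Mir3112 and Mir546, each lie in a 3′ UTR, the position of 11 members in all. Mir324 and Mir3112 entered the test only through the control libraries, and Mir680-2, the locus called higher, only through the noggin libraries. A difference was thus fixed by the filter for these 3, and their p-values are given as a description and not as support. The loci called lower stand outside the rule for named loci and were chosen after their values were seen. Mir324 (chr11:70012043-70012131, plus strand) lies in the 3′ UTR of Dvl2, a relay of Wnt signalling, opposite Acadvl, an enzyme of fatty acid oxidation. Mir324 was listed at 0 in all noggin libraries, against 17.8, 18.8 and 21.6 FPKM in control libraries (limma adjusted p = 0.00102). The value in control replicate 3 was 1.152 times that in control replicate 2, the step ratio of these libraries. In control replicate 2 the smallest values were 23.5 FPKM at 85 bases (Mir425) and 16.9 FPKM at 91 bases (Mir3061), which bracket the 18.8 FPKM of the 89-base Mir324. Dvl2 had 1.93, 2.35 and 0.0162 FPKM in noggin libraries, against 4.11, 2.24 and 2.74 FPKM in control libraries, which overlap (log2 fold change -0.88, SE 0.50, limma adjusted p = 0.287). Acadvl, with 154 to 209.6 FPKM in noggin and 239 to 269 FPKM in control libraries, did not overlap (log2 fold change -0.49, SE 0.18, limma adjusted p = 0.147).

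Mir3112 (chrX:134075316-134075397, plus strand) lies in the 3′ UTR of Cstf2, part of the machinery that cleaves messenger RNA 3′ ends. It was listed at 0 in all noggin libraries, against 27.6, 56.4 and 65.0 FPKM in control libraries (limma adjusted p = 0.00116). In control replicate 2 its value was 2 times the smallest at 82 bases. Cstf2 had 3.90, 6.27 and 7.02 FPKM in noggin libraries, against 7.12, 7.79 and 6.75 FPKM in control libraries (log2 fold change -0.32, SE 0.31, limma adjusted p = 0.525). Mir546 (chr10:126998440-126998560, plus strand) lies in the 3′ UTR of the phosphatase gene Ctdsp2 and had 0, 4.63 and 0 FPKM in noggin libraries, against 18.02, 75.9 and 30.9 FPKM in control libraries. No noggin value reached a control value, and the log2 fold change was -4.34 (SE 0.78, limma adjusted p = 0.0429). The locus passed the filter through the control libraries, with only noggin replicate 2 besides. This p-value too is given as a description and not as support. Ctdsp2 had 3.72, 4.83 and 2.16 FPKM in noggin libraries, against 10.4, 7.67 and 8.47 FPKM in control libraries. The host's groups did not overlap either, and the log2 fold change was -1.14 (SE 0.34, limma adjusted p = 0.102).

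Mir680-2 (chrX:144297790-144297899, plus strand), the locus called higher, overlaps no annotated gene. It had 283, 21.5 and 34.6 FPKM in noggin libraries and was listed at 0 in all control libraries (limma adjusted p = 0.0268). Noggin replicate 1 was far above the other 2 noggin libraries. The calls of Mir324 and Mir3112 ended when the trend of the values with transcript length was removed, at limma adjusted p of 0.0968 and 0.0663, while Mir680-2 was still called. The call of Mir546 ended there too (limma adjusted p = 0.104), and also without noggin replicate 1, without noggin replicate 3 and without any 1 of the 3 control libraries, at limma adjusted p of 0.0853, 0.0508, 0.157, 0.155 and 0.204. It further ended with smaller pseudocounts, with no filter on low values and with no mean-variance trend. The call of Mir680-2 ended without control replicate 1, 2 or 3, at limma adjusted p of 0.142, 0.0796 and 0.128, and with no filter on low values.

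**Figure D5:**
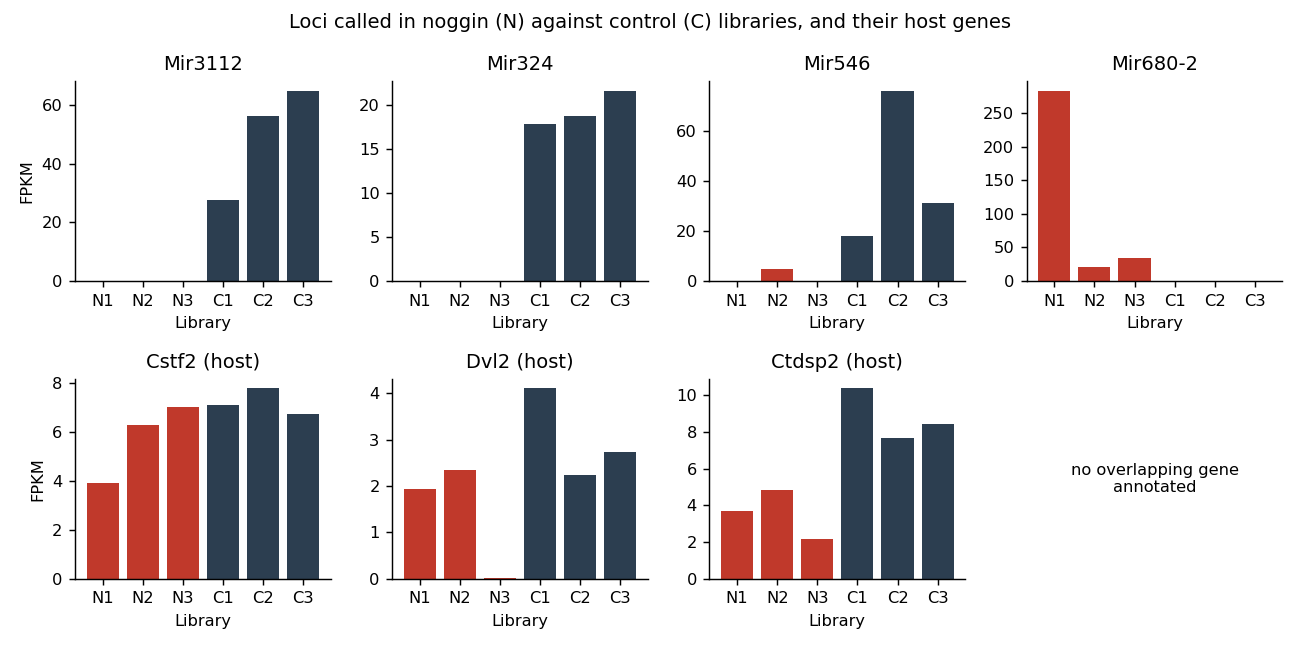
FPKM by library (N1 to N3 noggin, C1 to C3 control) of the 4 called microRNA loci, above, and of their host genes, below. Mir324 and Mir3112 are at 0 in all noggin libraries and Mir680-2 in all control libraries, while the hosts Cstf2 and Dvl2 overlap between the groups.

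Among the other tested loci, 3 more had an unadjusted p under 0.05: Mir3057, Mir3064 and Mir686. Mir3057, in an exon of a non-coding transcript of Apba3, had 0, 90.6 and 0 FPKM in noggin libraries, against 134, 101 and 117 FPKM in control libraries. Even the 1 noggin library with signal was below the control libraries, and the log2 fold change was -4.71 (SE 1.58, limma adjusted p = 0.124). Mir2861 and Mir3960 lie 11 bases apart in an exon of a non-coding transcript of Cdk9, the kinase of the elongation factor P-TEFb. Mir2861 had 62.4, 227 and 0 FPKM in noggin libraries, against 249.7, 169 and 162 FPKM in control libraries. Its neighbour Mir3960 had 121, 71.6 and 0 FPKM in noggin libraries, against 55.3, 214 and 0 FPKM in control libraries. Both overlapped between groups, and only noggin replicate 3 lacked both. Mir1892, in the 3′ UTR of Sptssa, a subunit of the enzyme that starts sphingolipid synthesis, had 807, 359 and 990.1 FPKM in noggin libraries, against 444, 0 and 178 FPKM in control libraries. Its log2 fold change was 3.94 (SE 2.01, limma adjusted p = 0.245) with 1 control library listed at 0, and without control replicate 2 it was 1.23.

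Signal was present in every library but noggin replicate 3 at 7 loci: Mir671, Mir1895, Mir1894, Mir1896, Mir1901, Mir2861 and Mir3074-1. Mir671, in a coding exon of Chpf2, had 680 and 61.0 FPKM in noggin replicates 1 and 2, against 28.6, 102 and 106 FPKM in control libraries. Mir1895 had 144 and 368 FPKM in noggin replicates 1 and 2, against 129.9, 68.6 and 158 FPKM in control libraries. Mir1894, in an exon of a non-coding transcript of Ppp1r10, had 178 and 201 FPKM there, against 26.1, 30.1 and 104 FPKM in control libraries. Mir1896 had 223 and 121 FPKM there, against 79.1, 30.1 and 69.2 FPKM. Mir1901 had 73.6 and 197 FPKM there, against 244, 36.7 and 423 FPKM in control libraries. All 7 had a negative log2 fold change with noggin replicate 3. Without it the change was positive for Mir671, Mir1895, Mir1894 and Mir1896 (1.58, 1.03, 2.09 and 1.56, against -0.99, -1.59, -0.43 and -0.89 with it), and it stayed negative for Mir1901, Mir2861 and Mir3074-1 (-0.38, -0.67 and -0.14, against -2.68, -2.97 and -2.06 with it). None of the 7 was called in either fit. Of the other named loci, Mir678 had 90.2, 0 and 394 FPKM in noggin libraries, against 18.2, 121 and 20.4 FPKM in control libraries. Mir5132, in an exon of a non-coding transcript of the signalling kinase Irak1, had 0, 507 and 0 FPKM in noggin libraries, against 125, 0 and 72.7 FPKM in control libraries. Both overlapped between the groups.

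The highest values outside the tested loci were found in 1 or 2 noggin libraries. Mir185 (chr16:18327401-18327465, minus strand), in an intron of the gene annotated as Tango2, had 3171 FPKM in noggin replicate 3, the highest value of any member in any library, and was listed at 0 in the other 5. Mir5116, in the 3′ UTR of Mmgt1, had 2041 FPKM in noggin replicate 3 alone, and Mir3094, in an intron of Nfx1, had 1034 and 1639 FPKM in noggin replicates 1 and 3 alone. These are short loci, of 65, 63 and 64 bases. The host of Mir185, listed as D16H22S680E, had 25.7, 32.1 and 24.9 FPKM in noggin libraries, against 20.99, 24.9 and 26.4 FPKM in control libraries. Mmgt1 had 6.04, 13.6 and 7.91 FPKM in noggin libraries, against 15.5, 20.5 and 18.6 FPKM in control libraries, which do not overlap, and Nfx1 had 6.21 to 11.2 FPKM in noggin and 9.88 to 11.4 FPKM in control libraries. Mir1a-1, a microRNA of muscle, had 386 FPKM in noggin replicate 1 alone. Mirlet7i had 304 FPKM and Mir132 had 219 FPKM in noggin replicate 3 alone, Mir3069 had 295 FPKM in noggin replicate 2 alone, and Mir130a had 253 FPKM and Mir105 had 194 FPKM in noggin replicate 1 alone. Mir5121, in an exon of a non-coding transcript of the ribosomal protein gene Rpl13a, had 192 and 66.1 FPKM in noggin replicates 1 and 2. All 10 were listed at 0 in every control library. The choice by highest value can favour noggin libraries, in each of which the median value of a locus with signal was higher than in any control library.

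Several members belong to known families and clusters. The 4 let-7 loci share the seed GAGGUAG, and each was seen in a different library: Mirlet7i at 304 FPKM in noggin replicate 3, Mirlet7b at 25.1 FPKM in control replicate 1, Mirlet7d at 19.3 FPKM in control replicate 2 and Mirlet7g at 22.9 FPKM in control replicate 3. The cluster on chromosome 14 that includes Mir17 is transcribed together as Mir17hg. Noggin replicate 2 had Mir18 at 17.7 FPKM, Mir19a at 113 FPKM and Mir92-1 at 42.0 FPKM, while control replicate 2 had Mir17 at 74.9 FPKM, Mir18 at 13.2 FPKM and Mir19a at 28.2 FPKM. Control replicate 3 had only Mir20a, at 9.42 FPKM, and Mir19b-1 was at 0 in every library. Hairpin loci of the cluster were thus seen in 1 noggin and 2 control libraries, with Mir18 and Mir19a the loci seen in more than 1. The row of Mir17hg itself did not follow these libraries. It had 0.819, 0.0904 and 0 FPKM in noggin libraries, against 0.153, 0.250 and 0.144 FPKM in control libraries.

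The miR-23, miR-27 and miR-24 loci form 2 clusters, on chromosomes 8 and 13. On chromosome 13 Mir27b had 71.6 FPKM in noggin replicate 2 and 107 FPKM in control replicate 2. Mir24-1 had 167, 0 and 0 FPKM in noggin libraries, against 154, 0 and 478 FPKM in control libraries. All 68 bases of Mir24-1 lie within Mir3074-1 on the opposite strand, which had 43.9, 63.0 and 0 FPKM in noggin libraries, against 102, 70.6 and 27.1 FPKM in control libraries. The same bases thus carried different values under the 2 names, and noggin replicate 3 was at 0 for both. On chromosome 8 Mir23a had 134 FPKM in control replicate 1, Mir27a had 56.2 FPKM in noggin replicate 2 and 21.9 FPKM in control replicate 1, and Mir24-2 had 11.0 FPKM in noggin replicate 2. Mir3074-2, which overlaps Mir24-2 over 83 bases on the opposite strand, had 51.7, 142 and 0 FPKM in noggin libraries, against 95.4, 0 and 0 FPKM in control libraries. Mir29b-2 and Mir29c, 426 bases apart on chromosome 1 with the seed AGCACCA, were seen at 192 FPKM (Mir29b-2) in noggin replicate 3, at 10.5 FPKM (Mir29c) in noggin replicate 1, and together in control replicate 3, at 47.7 and 23.3 FPKM.

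Most rows of microRNAs known for a cell type or organ were at 0 in every library, as were 513 of all 648 microRNA rows. Over all microRNA rows 20.5% had signal, and no result about cell types is drawn from the listed rows. Of the leukocyte microRNA list, all 5 rows in the table (Mir155, Mir142, Mir223, Mir150 and Mir146) were listed at 0 in every library. So was the endothelial Mir126. Mir146b, a member outside that list, had 16.3 FPKM in noggin replicate 3 alone. Of 6 smooth muscle rows only Mir1a-1 had signal. Of 6 epithelial rows only Mir429 had signal, at 53.0 FPKM in control replicate 2, and Mir200a, Mir200b, Mir200c, Mir141 and Mir205 were at 0. Of 5 gastrointestinal rows, Mir194-2 had 143 FPKM in noggin replicate 3. Mir215 had 0, 18.8 and 0 FPKM in noggin libraries, against 6.34, 6.998 and 0 FPKM in control libraries, while Mir192, Mir194-1 and Mir148a were at 0. Of 4 endocrine rows, Mir7-1, in an intron of Hnrnpk, had 15.7 and 18.1 FPKM in control replicates 2 and 3, and Mir375, Mir7-2 and Mir7b were at 0. The 2 erythroid rows, 99 bases apart, had signal: Mir451 at 125 FPKM in noggin replicate 3 and at 66.8 FPKM in control replicate 3, and Mir144 at 102 FPKM in control replicate 2.

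Of 43 genes that make, use or regulate microRNAs, 37 passed the filter. The other 6 include Lin28a, which regulates let-7 and was listed at 0 in every noggin library and at most at 0.0188 FPKM in control libraries. Over the 37, limma called 0 at an adjusted p under 0.05, with 7 at an unadjusted p under 0.05, of which 2 were higher and 5 lower in noggin libraries. Over all tested genes, 26.7% had an unadjusted p under 0.05. Groups did not overlap for 16 of the 37, against 38.3% of all tested genes. Their median log2 fold change was -0.30, with 9 positive and 28 negative, beside -0.03 for all tested genes. Rescaling to the same total called 6 of them lower and quantile normalization 1. The smallest adjusted p belonged to Cnot1, the scaffold of the deadenylase complex that Argonaute recruits, with 3.10, 5.42 and 2.49 FPKM in noggin libraries, against 10.5, 12.4 and 10.8 FPKM in control libraries (log2 fold change -1.44, SE 0.33, limma adjusted p = 0.0663). Pan3, of another deadenylase, had 0.459 to 1.00 FPKM in noggin and 2.14 to 2.62 FPKM in control libraries (log2 fold change -1.02, SE 0.28, limma adjusted p = 0.0958). Khsrp, which binds some hairpins and aids their cutting, had 3.53 to 7.83 FPKM in noggin and 10.8 to 12.9 FPKM in control libraries (log2 fold change -1.09, SE 0.33, limma adjusted p = 0.109). The groups did not overlap for these 3, nor for Ran, the export GTPase, with 86.4 to 107 FPKM in noggin and 51.8 to 64.8 FPKM in control libraries (log2 fold change 0.71, SE 0.19, limma adjusted p = 0.0865).

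The core cutting enzymes were low in all libraries. Drosha had 3.78, 5.72 and 3.29 FPKM in noggin libraries, against 7.08, 7.15 and 7.24 FPKM in control libraries, with every noggin library below every control library (log2 fold change -0.66, SE 0.30, limma adjusted p = 0.207). Dgcr8 had 0.791 to 2.98 FPKM in noggin and 2.50 to 2.90 FPKM in control libraries, which overlap (log2 fold change -0.41, SE 0.37, limma adjusted p = 0.491). Dicer1 had 0.513 to 1.53 FPKM in noggin and 1.71 to 1.99 FPKM in control libraries, which do not (log2 fold change -0.50, SE 0.31, limma adjusted p = 0.326). Ago2, listed as Eif2c2, had 1.54 to 1.92 FPKM in noggin and 2.02 to 2.27 FPKM in control libraries (log2 fold change -0.20, SE 0.27, limma adjusted p = 0.660).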

How the data were processed

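RNA of tdTomato-sorted parietal cells was measured in 3 noggin and 3 control libraries. Per the labels, total RNA went into SMART-Seq V3 libraries, which were read as 50-base single reads. The deposited table holds the authors' FPKM values per gene and library. The submitters' processing notes name bcl2fastq, FastQC 0.10.0 and the build mm10. Which quantifier and annotation were used is not given in the sources used here, and without read counts the depth per library is unknown.

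Members and gene lists were chosen with earlier results of these data known. Named were the 25 tested loci with the highest mean, the 10 untested loci with the highest value in 1 library, their hosts and a microRNA-pathway list. A host is the gene on the same strand that holds the locus in GENCODE M21. Values were tested as log2(FPKM + 1) over genes at 1 FPKM or more in at least 3 libraries, with group as the only term, by limma 3.58.1 (R 4.3.3) with a mean-variance trend and Benjamini-Hochberg adjustment. The test was tried on simulated data. Locus-to-host ratios used a two-sided exact permutation test (scipy 1.17.1). Alternatives were other pseudocounts, filters and scalings, no mean-variance trend, removal of the trend with length, a replicate block and leaving out each library. If libraries were technical replicates, p-values would measure only technical spread. No library repeated another: the closest had different values in 16505 genes.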

Additional observations from a re-analysis of the deposited data

How the results depend on the processing

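The number of tested loci called higher (1 in the values reported above) was 0 with no filter on low values, and 0 to 3 when each library was left out in turn. The number called lower (3) was 5 after rescaling to the same total FPKM and 0 after the trend with length was removed, and ranged from 2 to 5 with libraries left out. Pathway genes called lower (0) numbered 6 after rescaling, 1 after quantile normalization and 0 to 3 with libraries left out, and those called higher (0) ranged from 0 to 2. Over all genes, 186 higher and 74 lower calls became 130 and 820 after rescaling, 243 and 231 after quantile normalization, 8 and 4 with no filter, 1187 and 825 without noggin replicate 2, and 4 and 5 without control replicate 1. The values recomputed covered 49 genes and 729 fold changes, of which 658 kept direction and call, 16 lost the call, 21 gained it and 34 changed sign. The cause of these changes was not tested.

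Signs changed after rescaling for Mir762 (-0.27), Mir1893 (-0.18), Mir719 (-0.44), Mir1199 (-0.11) and Ifrd1 (-0.23). They changed after quantile normalization for Mir762 (-0.33), Epc1 (0.024) and Eif2c2 (0.13), and after removal of the trend with length for Mir1938 (0.22), Mir1982 (0.13), Mir678 (0.70), Mir1894 (0.45) and Mir3960 (0.82). With libraries left out, the log2 fold change crossed 0 for Mir1893 (-0.58 to 1.68), Mir671 (-3.13 to 1.58), Mir1895 (-3.23 to 1.03), Mir5132 (-4.39 to 0.10), Mir678 (-1.95 to 2.37), Mir1894 (-1.74 to 2.09), Mir1896 (-2.34 to 1.56), Mir3960 (-2.41 to 2.04), Mir719 (-0.71 to 1.49), Mir1199 (-0.44 to 1.23), Epc1 (-0.70 to 0.16) and Ddx5 (-0.24 to 0.070).

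Replicate numbers gave no sign of pairing: same-numbered noggin and control libraries had correlated deviations of 0.11, -0.14 and 0.01. With the replicate block 1 locus was called higher and 3 lower, the same 4 loci as without it, and over all genes 128 and 32 were called. Where an arm held 2 libraries, its spread was pooled with that of the other arm. There were 3 libraries a group and no read counts, and in some libraries many loci had values of a few steps. A locus listed at 0 may thus have gone undetected at this depth, which is unknown.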
